A study of Rattus norvegicus with 12 samples.

Results

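The A1 genes examined here are 10 of the 17941 genes counted in this series, namely *RT1-S3*, *RT1-A2*, *Serping1*, *Ggta1*, *Irgm*, *Gbp2*, *Ugt1a*, *Fkbp5*, *Srgn* and *Amigo2*. They were taken by name from the A1-specific section of the authors' sheet of reactive astrocyte genes, which holds 11 genes, the remaining one being *Fbln5*. The rule names genes and uses no measured value, and the A1 list was defined elsewhere, in reactive astrocytes of another system. However, the 10 genes were chosen from it with earlier results of these data known. Of the 10, 9 were in the table of 9394 genes that passed the authors' filter on low counts, and *RT1-S3* was only in the unfiltered table.

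Astrocytes (ASTRs) respond to injury and inflammation by changing their transcription, and A1 is the name of a state that was first described as neurotoxic and as induced by factors from activated microglia, in contrast to the A2 state that was described as protective. The A1 genes have several kinds of product. Class I MHC molecules (RT1 in the rat) present peptides from inside the cell to CD8+ T cells, and interferons raise their transcription together with that of GTPases of the Irgm and Gbp families, which act on membranes of vacuoles that hold pathogens. The promoters of such genes often carry an interferon-stimulated response element (ISRE), bound by STAT and IRF factors. The remaining products inhibit complement, modify glycans, conjugate hydrophobic compounds, regulate the glucocorticoid receptor, package secreted proteins or serve in adhesion.

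All cultures came from young adult female Wistar rats. The gmASTRs were grown from cerebral cortex freed of meninges, and the wmASTRs from the non-cortical remainder without amygdala, that is, white matter tracts with hippocampus, thalamus and basal ganglia, so that the wmASTR group also holds some deep grey matter astrocytes. Both kinds of culture were prepared from the same animals, kept for 20 days under similar conditions with at least 1 passage, and sequenced without treatment as 6 independent preparations each. The question of the comparison was whether astrocytes of both regions differ in transcripts of reactive states when nothing is added to induce such a state. Reads were taken from the 3′ end of each transcript, so that a count does not grow with transcript length and levels of different genes can be set side by side. Values are given as CPM, that is, counts scaled to the total of reads counted on genes in each library. Totals were 4920488 to 6356487 reads in gmASTR libraries and 5363330 to 7207118 in wmASTR libraries, and 3 reads, the lowest count taken to show a transcript, were worth 0.416 to 0.610 CPM. These limits cover counting error only.

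Some features of the libraries bear on all that follows. Of 14 astrocyte markers 8 had an identifier, among which *Gja1*, the astrocyte connexin, was at 4789 ± 627 CPM in gmASTRs against 4366 ± 1241 CPM in wmASTRs, while *Gfap*, the astrocyte intermediate filament, was at 0 in all 6 gmASTR libraries (which allows up to 0.610 CPM) and at 1.39 to 10.6 CPM in wmASTRs. Of the 8, 4 were higher in wmASTRs and 1 in gmASTRs. The call towards gmASTRs was lost without gmASTR replicate 4 or wmASTR replicate 4, 5 or 6 (FDR up to 0.0697). *Mfge8*, which encodes a secreted protein used in phagocytosis, ranged from 640.3 to 1324 CPM in gmASTRs and from 1562 to 4617 CPM in wmASTRs (log2FC -1.63, FDR = 0.000691), and *Vim*, an intermediate filament gene that is not particular to astrocytes, at 2884 ± 236 and 2353 ± 96.5 CPM (log2FC 0.23, FDR = 0.0987). The glutamate transporter *Slc1a3* was at 8.21 ± 4.03 and 21.3 ± 8.46 CPM, and the water channel *Aqp4* at 0.200 ± 0.338 and 3.69 ± 1.30 CPM, so that *Gfap* and *Aqp4* were at or near 0 in gmASTRs. gmASTR replicate 5 stood apart, as its profile correlated more with the mean of wmASTRs (r = 0.950 across genes) than with the mean of the other gmASTR libraries (r = 0.942). Tests of the A1 genes that rest on this library are given with and without it, whereas the CPM values of other genes include it. In bulk cultures, fewer cells of a type and less RNA per cell cannot be told apart.

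Names stand beside identifiers for few genes, since the count tables hold Ensembl identifiers only. *Fkbp5* was paired with its identifier in a sheet, and the other 9 names were joined to identifiers by their 12 CPM values, each of which matched within 0.01 on the log2 scale while the next best gene was at least 0.46 away. The sheet itself can carry a wrong name, as the values under Emp1 are those of *Efemp1*, so that the identity of these 9 genes is as good as the sheet. Further, RefSeq lists 44 RT1 class I and related genes, and 8 of the 10 *Ugt1a* genes share one 3′ end. Counts of near-identical RT1 genes may be split or lost in ways these data do not show. A *Ugt1a* count may stand for several genes of the family, and not for all of them.

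Promoters of 8 of the 10 genes were found by symbol in RefSeq (GRCr8), from 250 bases before to 50 bases after the start of the gene. Those of *RT1-S3*, *Irgm* and *Gbp2* are shown because they hold the core of the ISRE, searched on both strands as GAAA, 2 free bases and GAAA, and that of *Ggta1* because this gene differed most clearly between regions and its window does not hold it. Capitals mark matches to the ISRE core and, in *Irgm*, to the interferon-gamma activated site (GAS, searched as TTC, 3 free bases and GAA) and, in *Gbp2*, to the AP-1 motif (TGA, 1 free base and TCA).
RT1-S3: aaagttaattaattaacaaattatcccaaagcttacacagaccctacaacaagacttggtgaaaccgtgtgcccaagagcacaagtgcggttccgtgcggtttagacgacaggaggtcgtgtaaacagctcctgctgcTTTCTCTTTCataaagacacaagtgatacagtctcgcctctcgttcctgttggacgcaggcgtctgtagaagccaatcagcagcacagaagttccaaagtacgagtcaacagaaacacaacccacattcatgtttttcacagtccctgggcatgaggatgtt
Irgm: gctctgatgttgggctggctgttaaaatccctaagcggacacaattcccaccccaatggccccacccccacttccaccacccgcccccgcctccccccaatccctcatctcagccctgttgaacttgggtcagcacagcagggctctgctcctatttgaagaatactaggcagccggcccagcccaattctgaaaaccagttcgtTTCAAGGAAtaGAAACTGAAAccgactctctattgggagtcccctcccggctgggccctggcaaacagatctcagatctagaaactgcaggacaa
Gbp2: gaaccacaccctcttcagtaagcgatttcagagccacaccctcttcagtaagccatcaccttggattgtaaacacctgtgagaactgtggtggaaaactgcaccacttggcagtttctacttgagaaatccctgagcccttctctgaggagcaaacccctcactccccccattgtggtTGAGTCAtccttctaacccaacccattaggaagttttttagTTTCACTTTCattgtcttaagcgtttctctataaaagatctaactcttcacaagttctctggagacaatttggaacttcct
Ggta1: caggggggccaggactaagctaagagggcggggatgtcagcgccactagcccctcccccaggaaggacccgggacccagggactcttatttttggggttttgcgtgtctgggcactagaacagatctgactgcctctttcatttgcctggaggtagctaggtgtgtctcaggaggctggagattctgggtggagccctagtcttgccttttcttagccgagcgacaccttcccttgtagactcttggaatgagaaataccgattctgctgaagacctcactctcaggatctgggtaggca
The windows are chr20:2675278-2675577 (plus strand) for *RT1-S3*, chr10:33742529-33742828 (minus strand) for *Irgm*, chr2:234005477-234005776 (plus strand) for *Gbp2* and chr3:39206537-39206836 (minus strand) for *Ggta1*. The ISRE core began 112 bases before the start in *RT1-S3* (TTTCTCTTTC, on the opposite strand), 34 bases before it in *Irgm* (GAAACTGAAA) and 31 bases before it in *Gbp2* (TTTCACTTTC, on the opposite strand). *Srgn* also matched, 248 bases before the start, within a run of adenines (GAAAAAGAAA). Thus 4 of 8 windows held the ISRE core, which is found in 3.92% of 33469 promoters of this length. *Irgm* was the member with a GAS (8.87% of promoters), 45 bases before the start and not overlapping its ISRE, and *Gbp2* the member with an AP-1 motif (7.33%), 72 bases before the start. The NF-kB motif, searched as GGGA, 1 free base and TTTCC (0.362% of promoters), and the glucocorticoid response element, searched as AGAACA, 3 free bases and TGTTCT (0.0149%), were in none of the 8 windows. A match to these letters is a description of the reference and not a measurement of binding. The search took exact letters only, so that sites spelled otherwise were not counted. A window without a match, such as that of *RT1-A2*, is therefore not shown to lack these elements.

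Between gmASTRs and wmASTRs, 2 of the 10 A1 genes differed at an FDR under 0.05 (edgeR's quasi-likelihood test with Benjamini-Hochberg adjustment over all genes), *Ggta1* and *Ugt1a*, and both were higher in wmASTRs. Over the whole filtered table, 6.69% of genes were called higher in wmASTRs and 5.64% higher in gmASTRs, 12.3% in all. None of the A1 genes was called higher in gmASTRs. At an unadjusted p under 0.05 there were 4 genes, the other two being *Serping1* (lower in gmASTRs) and *Fkbp5* (higher in gmASTRs), against 25.2% of the filtered table. The log2 fold change (log2FC, gmASTR minus wmASTR) was below 0 for 6 genes and above 0 for 4, against 47.9% of the filtered table below 0, and its median was -0.22 over the 10 genes and 0.02 over the filtered table. In none of the 10 genes were the libraries of both groups free of overlap, which was the case for 5.76% of the filtered table and 3.99% of the unfiltered one.

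**Figure D1:**
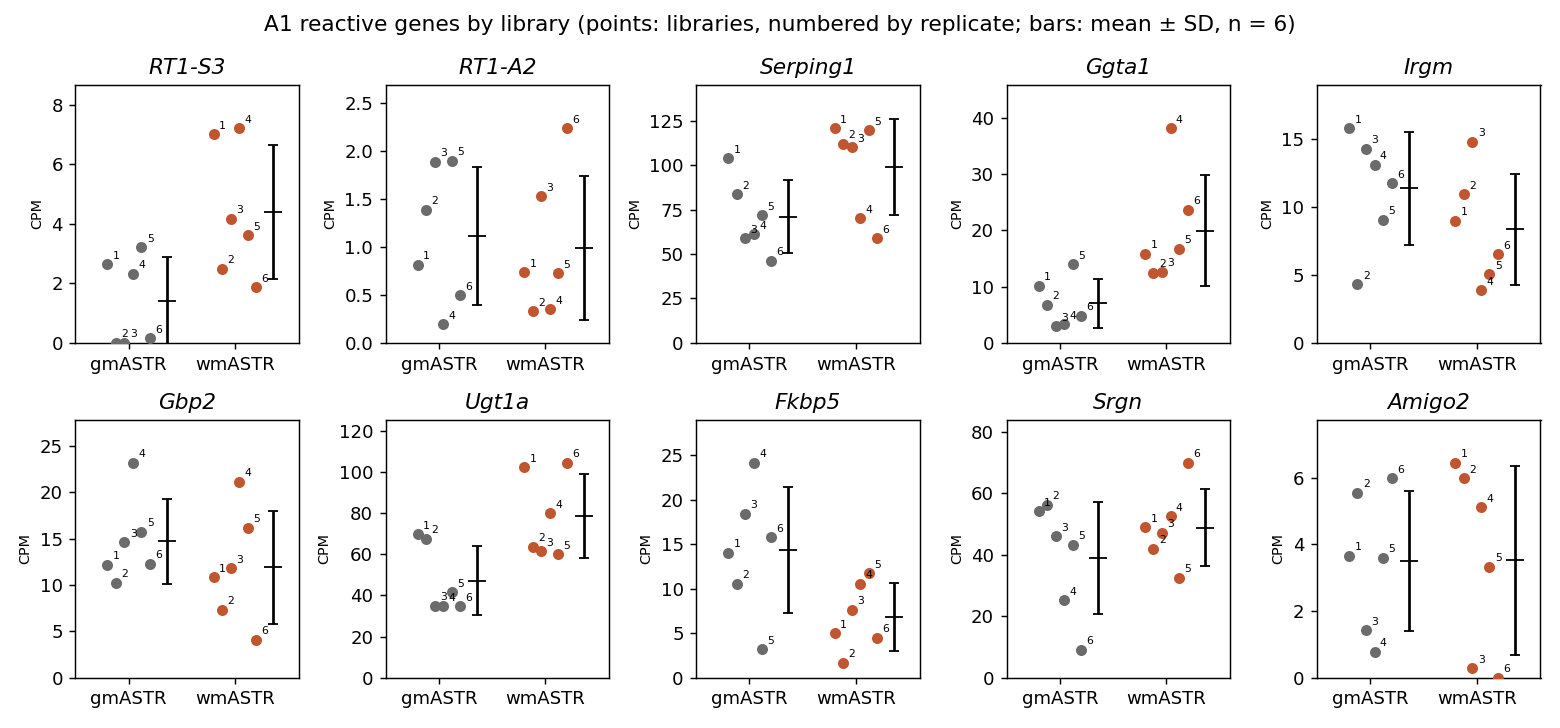
CPM of each of the 10 A1 genes (vertical axes, each from 0) in the 6 gmASTR and 6 wmASTR libraries, numbered by replicate, with mean ± SD beside the points. The points of both groups overlap in each panel, least in *Ggta1*, where 5 gmASTR libraries lie below all wmASTR libraries.

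The transcripts counted as *RT1-S3* and *RT1-A2*, of the many class I MHC genes, were scarce. *RT1-S3* encodes a class Ib molecule of the RT1 complex. It ranged from 0 to 3.22 CPM in gmASTRs, with a median of 1.24, and from 1.86 to 7.22 CPM in wmASTRs, with a median of 3.89. In reads, these were 43 in all gmASTR libraries and 159 in all wmASTR libraries. gmASTR replicates 2 and 3 had no read, which allows up to 0.520 and 0.472 CPM, while each wmASTR library was above the floor. The means were 1.39 ± 1.49 and 4.39 ± 2.25 CPM (SD, n = 6 each). The log2FC was -1.70 (SE 0.91) and did not pass in the unfiltered table of 15478 genes (quasi-likelihood FDR = 0.247), in which 4.28% of genes were called higher in wmASTRs and 3.46% higher in gmASTRs, 7.73% in all. The 95% interval of the log2FC, -3.57 to 0.17, reaches from a large excess in wmASTRs to none. The 2 highest gmASTR values belonged to replicates 5 and 1, and the 2 highest wmASTR values to replicates 4 and 1. Without gmASTR replicate 5 the log2FC was -2.18 (FDR = 0.160), and in limma-voom with all libraries it was -2.78 and did not pass either (FDR = 0.0618).

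*RT1-A2*, a gene of the region that encodes classical class I molecules, was the lowest of the 10 genes, and 0.128% of the filtered table lay below its mean. It ranged from 0.193 to 1.89 CPM in gmASTRs (median 1.10) and from 0.332 to 2.24 CPM in wmASTRs (median 0.730), which is 38 and 36 reads in all. The groups covered nearly the same range. The log2FC was 0.13 (SE 0.65, FDR = 0.937), with a 95% interval of -1.25 to 1.50, which does not exclude 2.37-fold more transcript in wmASTRs or 2.83-fold more in gmASTRs. Its sign turned when any of 4 libraries was left out. Of 18 genes of peptide loading and the immunoproteasome, which act with class I molecules, 1 had an identifier. This was *Psme2*, a subunit of the proteasome activator PA28, with 27.9 ± 9.50 CPM in gmASTRs against 19.5 ± 3.29 CPM in wmASTRs (log2FC 0.44, SE 0.24, FDR = 0.271).

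The GTPases induced by interferon, *Irgm* and *Gbp2*, were at moderate levels in both groups. *Irgm* ranged from 4.33 to 15.9 CPM in gmASTRs (median 12.5) and from 3.87 to 14.8 CPM in wmASTRs (median 7.77). *Gbp2* ranged from 10.2 to 23.2 CPM in gmASTRs (median 13.5) and from 4.10 to 21.1 CPM in wmASTRs (median 11.3). Replicate 4 was the highest for *Gbp2* in both groups. For each gene 5 of 6 gmASTR libraries lay within the range of wmASTRs. The log2FC was 0.38 (SE 0.38, FDR = 0.585) for *Irgm* and 0.24 (SE 0.34, FDR = 0.733) for *Gbp2*. With 1 library left out it ranged from 0.24 (without wmASTR replicate 4) to 0.61 (without wmASTR replicate 3) for *Irgm* and from 0.06 (without wmASTR replicate 6) to 0.48 (without wmASTR replicate 4) for *Gbp2*. Their 95% intervals, -0.40 to 1.17 and -0.48 to 0.96, do not exclude 2.25-fold and 1.94-fold more transcript in gmASTRs.

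Few other interferon genes could be read. Of 16 interferon receptor and signalling genes none had an identifier, and of 43 genes induced by interferon 3 had one, so that these lists cannot be given a direction. *Trim21*, an antibody receptor and ubiquitin ligase, was at 12.5 ± 2.77 CPM in gmASTRs against 6.26 ± 3.49 CPM in wmASTRs (log2FC 0.94, SE 0.41, FDR = 0.151). *Igtp*, a GTPase of the family of *Irgm*, was at 5.41 ± 4.30 and 2.73 ± 1.48 CPM (log2FC 0.90, SE 0.70, FDR = 0.470). None of the 3 passed the test, the other being *Ifit3*. Their log2FC were all above 0, as were those of 93.2% of the 1568 genes with a name in the filtered table, against 43.8% of the genes without one.

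*Serping1*, which encodes the C1 inhibitor of the complement and contact systems, was the most abundant of the A1 genes. It ranged from 46.4 to 104 CPM in gmASTRs (median 66.5) and from 58.9 to 121 CPM in wmASTRs (median 111). Of the wmASTR libraries 4 lay above all gmASTR libraries, whereas wmASTR replicates 4 and 6 lay within the gmASTR range. The means were 71.0 ± 20.5 and 98.7 ± 27.0 CPM, with a log2FC of -0.53 (SE 0.20) that did not pass (FDR = 0.0996). The FDR was 0.0351 without gmASTR replicate 1, the highest of its group, and 0.0480 without wmASTR replicate 6, the lowest of its group, and lay between 0.0732 and 0.199 without any other single library.

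The target of the C1 inhibitor is the C1 complex, and the transcripts of its recognition chains were called in the same direction as *Ggta1* and *Ugt1a*. Of 23 complement genes 4 had an identifier, and all 4 were higher in wmASTRs. Names came in part from the authors' lists of genes higher in either region, so that a gene could be named because it differed. The direction of the 4 therefore cannot be read as that of the list. *C1qa* was at 21.3 ± 15.7 CPM in gmASTRs against 99.0 ± 56.3 CPM in wmASTRs (log2FC -2.28, SE 0.45, FDR = 0.00257). *C1qb* (log2FC -2.77, FDR = 0.0114) and *C1qc* (-2.90, FDR = 0.00861, and 0.0519 without wmASTR replicate 4) encode the other chains of C1q, and *Cfd* (-2.05, FDR = 0.0127) encodes complement factor D. C1q is made mainly by microglia in the brain, and the microglial markers that passed went in the same direction. Of 16 microglia markers 6 had an identifier and 4 of these were higher in wmASTRs. The source of the names limits this list too, and *Irf5* and *Irf8*, which were joined by values, did not pass (FDR = 0.970 and 0.425). *Aif1* passed (FDR = 0.0242), but not without wmASTR replicate 1 or 4 (FDR up to 0.104). The summed level of the 6 markers was 7.39 to 36.2 CPM in gmASTRs and 46.4 to 173 CPM in wmASTRs, without overlap. *Laptm5*, the most abundant of them, was at 8.42 ± 5.47 and 44.5 ± 24.4 CPM, and *Ncf1*, a subunit of the phagocyte oxidase, at 2.08 ± 1.80 and 13.8 ± 7.58 CPM. *Irf8* had no read in 5 of the 12 libraries. Class I MHC genes and *Srgn*, for example, are also transcribed in microglia. The part of these cells in the values of the A1 genes was not tested.

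*Ggta1* differed most clearly of the 10 genes. It encodes the galactosyltransferase that adds the terminal alpha-galactose (alpha-Gal epitope) to glycoproteins and glycolipids of most mammals. In gmASTRs it ranged from 2.99 to 14.0 CPM with a median of 5.79, and in wmASTRs from 12.5 to 38.2 CPM with a median of 16.3. Hence 5 gmASTR libraries lay below every wmASTR library, and gmASTR replicate 5, at 14.0 CPM, lay just above the lowest 2 wmASTR libraries. The means were 7.01 ± 4.34 and 19.9 ± 9.83 CPM, and in the fit wmASTRs had 2.96-fold more transcript (95% interval 1.63 to 5.38, log2FC -1.57, SE 0.41, FDR = 0.0165). The highest library, wmASTR replicate 4 at 38.2 CPM, was also the one with the highest sum of microglia markers, 173 CPM, whereas gmASTR replicate 5, the highest of its group, had a sum of 23.5 CPM, near the gmASTR median of 20.2 CPM. Without wmASTR replicate 4 the fold was smaller and the call was lost (log2FC -1.27, FDR = 0.0583). Without gmASTR replicate 5 the libraries of both groups no longer overlapped and the log2FC was -1.92 (FDR = 0.00240), and without both libraries, an alternative added after the values were seen, it was -1.62 (FDR = 0.00818). A two-sided exact permutation test of log2(CPM + 1) gave p = 0.00649, which was 0.0610 when adjusted over the filtered table. Its smallest possible p is 0.00216. RefSeq holds 3 genes with Ggta1 as symbol or synonym, and whether the counts stand for one of them is not known here.

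*Ugt1a*, the family of UDP-glucuronosyltransferases that conjugate bilirubin, steroids and xenobiotics, was the second most abundant A1 gene. It ranged from 34.7 to 69.9 CPM in gmASTRs (median 38.3) and from 60.0 to 105 CPM in wmASTRs (median 71.8). The gmASTR libraries fell into 4 at 34.7 to 41.7 CPM and 2, replicates 1 and 2, at 69.9 and 67.6 CPM, which lay within the range of wmASTRs. Of the wmASTR libraries 3 lay above all gmASTR libraries. The fit gave 1.74-fold more transcript in wmASTRs (95% interval 1.26 to 2.41, log2FC -0.80, SE 0.22, FDR = 0.0234). This call was near the threshold. It was lost without gmASTR replicate 3 (FDR = 0.0562), 4 (0.0527) or 6 (0.0538) and without wmASTR replicate 1 (0.0612) or 6 (0.0644), and the lowest FDR with a library left out was 0.00988. In the exact permutation test p was 0.0216, and 0.116 after adjustment over the filtered table.

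**Figure D2:**
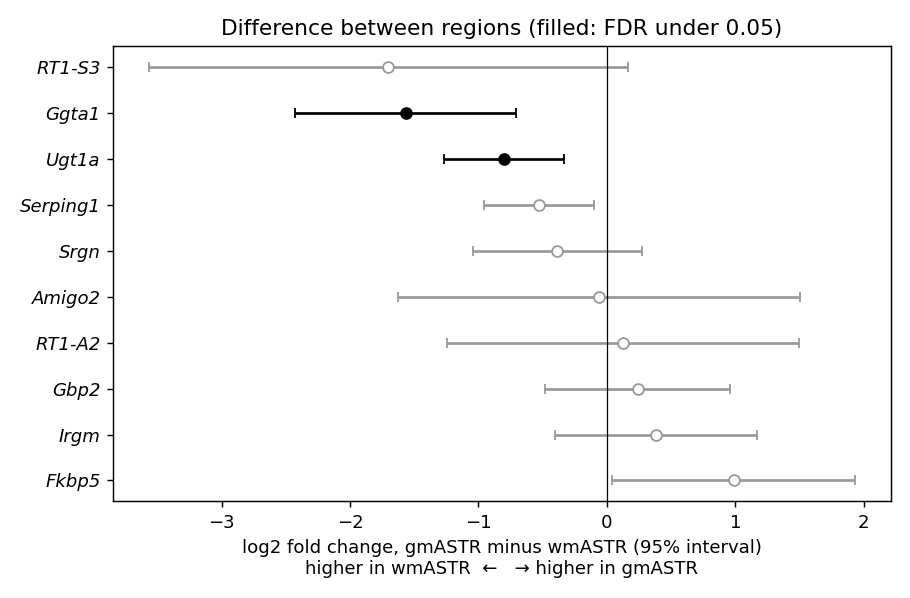
Log2FC of each A1 gene (horizontal axis, gmASTR minus wmASTR) with its 95% interval from the quasi-likelihood fit over 12 libraries, filled where the FDR was under 0.05. *Ggta1* at -1.57 and *Ugt1a* at -0.80 are filled, and the intervals of *RT1-S3*, *RT1-A2* and *Amigo2* are the widest.

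Of 16 other genes of conjugation and xenobiotic response, 3 had an identifier, and 2 of these passed, the other way from *Ugt1a*. The share of named genes with a log2FC above 0 limits this list as well. *Gclc*, the catalytic subunit of the first enzyme of glutathione synthesis, was at 81.1 ± 25.8 CPM in gmASTRs against 22.6 ± 9.67 CPM in wmASTRs (log2FC 1.77, SE 0.27, FDR = 0.000326). *Gstm1*, a glutathione S-transferase, was at 44.3 ± 15.0 and 25.8 ± 4.50 CPM (log2FC 0.71, SE 0.20, FDR = 0.0274), a call lost without any of 5 single libraries (gmASTR replicates 4 and 6, wmASTR replicates 2, 4 and 5, FDR up to 0.0838). *Ahr*, the receptor through which some xenobiotics induce *Ugt1a* genes, was at 12.4 ± 7.99 and 8.27 ± 2.46 CPM and did not pass (log2FC 0.50, SE 0.39, FDR = 0.468).

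*Fkbp5* encodes a co-chaperone that lowers the affinity of the glucocorticoid receptor for its ligand and is itself induced by that receptor. It was the A1 gene with the largest log2FC towards gmASTRs. It ranged from 3.22 to 24.2 CPM in gmASTRs (median 14.9) and from 1.66 to 11.7 CPM in wmASTRs (median 6.30). Of the gmASTR libraries 4 lay above all wmASTR libraries, and gmASTR replicate 5 was the lowest of its group by far, at 3.22 CPM against at least 10.6 CPM in the others. The means were 14.4 ± 7.11 and 6.84 ± 3.85 CPM, with a log2FC of 0.99 (SE 0.45, FDR = 0.177). Without gmASTR replicate 5 it was 1.18 (FDR = 0.0515), and without both gmASTR replicate 5 and wmASTR replicate 4 it was 1.35 and passed (FDR = 0.0361). Of 19 other genes that were listed as responding to glucocorticoids or as chaperones of their receptor, 3 had an identifier. All 3 were higher in gmASTRs. They were *Sult1a1*, a sulfotransferase (log2FC 2.69, FDR = 0.0292), *Cdkn1c*, a cell cycle inhibitor (1.56, FDR = 0.0317), and *Fkbp4*, a co-chaperone that promotes receptor activity (0.56, FDR = 0.0304). Each of these calls was lost without gmASTR replicate 4 and without wmASTR replicate 5 or 6. In the 12 fits with 1 library left out, *Sult1a1* was called in 8, *Cdkn1c* in 6 and *Fkbp4* in 6, and the FDR reached 0.0935, 0.0848 and 0.0865 when single libraries were left out. As 93.2% of named genes had a log2FC above 0, their direction cannot be read as that of the list.

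*Srgn* encodes serglycin, a proteoglycan of secretory granules that is abundant in cells of the blood lineage and endothelium. It ranged from 9.14 to 56.3 CPM in gmASTRs (median 44.6) and from 32.5 to 69.9 CPM in wmASTRs (median 48.1). The lowest and the highest value were both from replicate 6, of gmASTRs and wmASTRs. The log2FC was -0.39 (SE 0.31, FDR = 0.495), and it was -0.18 without gmASTR replicate 6 and -0.24 without wmASTR replicate 6. *Amigo2*, an adhesion protein with leucine-rich repeats, was at 0.773 to 5.98 CPM in gmASTRs (median 3.63) and at 0 to 6.45 CPM in wmASTRs (median 4.21). wmASTR replicate 6 had no read of it. Its mean was the same within 1% in both groups, 3.50 ± 2.10 and 3.52 ± 2.83 CPM, but its 95% interval was -1.63 to 1.50 (log2FC -0.06, SE 0.75, FDR = 0.971), which is too wide to call the groups alike.

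*Fbln5*, which encodes an elastic fibre protein, was the remaining A1 gene of the sheet. At 82.6 ± 11.6 and 113 ± 10.2 CPM it was on a level with *Serping1*, and its log2FC was -0.51 (SE 0.13, FDR = 0.0114). Its fold was near that of *Serping1* (log2FC -0.53) and its libraries spread less. They ranged from 65.8 to 97.4 CPM in gmASTRs and from 101 to 129 CPM in wmASTRs, without overlap, as in 5.76% of the filtered table. The call held in 12 of 12 fits with 1 library left out, unlike those of *Ggta1* and *Ugt1a*.

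**Figure D3:**
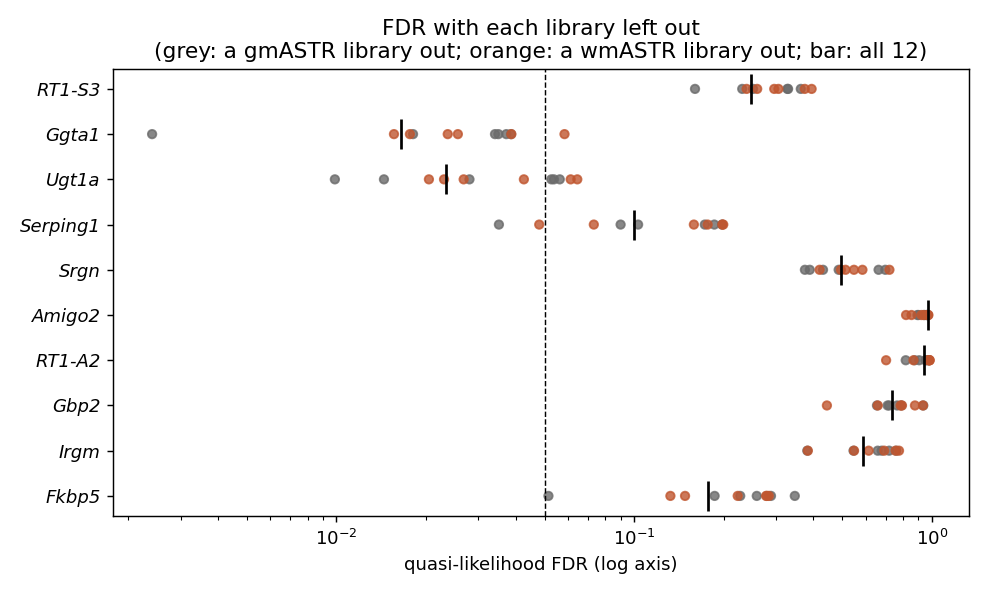
Quasi-likelihood FDR of each A1 gene (horizontal log axis) with all 12 libraries (bar) and after dropping 1 library at a time (grey points without a gmASTR library, orange points without a wmASTR library). The dashed line is at 0.05. *Ggta1* was below it in 11 of 12 such fits, *Ugt1a* in 7, *Serping1* in 2 and the other genes in none.

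Within each group the A1 genes covered a wide range of levels. In gmASTRs the order of the means was *Serping1*, *Ugt1a*, *Srgn*, *Gbp2*, *Fkbp5*, *Irgm*, *Ggta1*, *Amigo2*, *RT1-S3* and *RT1-A2*. The place of *Gbp2* above *Fkbp5* held in 1 of 6 libraries, replicate 5, and *Fkbp5* was the higher of the pair in the other 5, so that this order turned without replicate 5. Of the neighbours in this order, *Serping1* exceeded *Ugt1a* in 6 of 6 libraries (exact test over 64 swaps, two-sided, p = 0.03125, the smallest it can give), and no other pair of neighbours had a p below 0.0938 before adjustment. In wmASTRs *Ggta1* stood in the fourth place, below *Srgn* and above *Gbp2*, with each of these orders in 6 of 6 libraries (exact test, p = 0.03125 each), and *Ugt1a* was above *Srgn* in 6 of 6 (exact test, p = 0.03125). The other neighbours in wmASTRs did not keep one order in all libraries, with *Serping1* above *Ugt1a* in 4 of 6 libraries (exact test, p = 0.3125). *Serping1*, *Ugt1a* and *Srgn* were the 3 genes with a mean above 20 CPM in both groups, and *RT1-S3*, *RT1-A2* and *Amigo2* the 3 with a mean under 5 CPM in both. After adjustment over the 18 pairs of neighbours of both groups no order passed (smallest adjusted p = 0.141, exact test). The coefficient of variation between libraries was lowest for *Srgn* in wmASTRs (25.5%) and highest for *RT1-S3* in gmASTRs (107%).

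Libraries of one region also differed from each other, and it was asked whether the A1 genes did so together. Over 45 pairs, Pearson's r of the deviations of log2(CPM + 1) from the group means (12 libraries) had a median of 0.0317 and lay between -0.511 and 0.635, and by r no pair passed after adjustment over the 45 (smallest adjusted p = 0.649, permutation test with 100000 resamples, two-sided). The highest was that of *Ugt1a* and *Srgn* (r = 0.635, p = 0.0369, adjusted 0.649). In ranks the same pair had Spearman's rho = 0.886 (permutation p = 0.00107, adjusted 0.0481), the 1 pair that passed in ranks, and r was 0.485 without the 2 libraries farthest from the median of *Ugt1a*. For *RT1-S3* and *Gbp2*, which both hold an ISRE core, r was 0.569 (permutation p = 0.0257, adjusted 0.649), and 0.564 without the 2 farthest libraries. *Irgm* had r = -0.10 with *Gbp2* and 0.12 with *RT1-S3*, and *Srgn* had r = 0.119 with *RT1-S3*, -0.243 with *Gbp2* and -0.167 with *Irgm*.

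**Figure D4:**
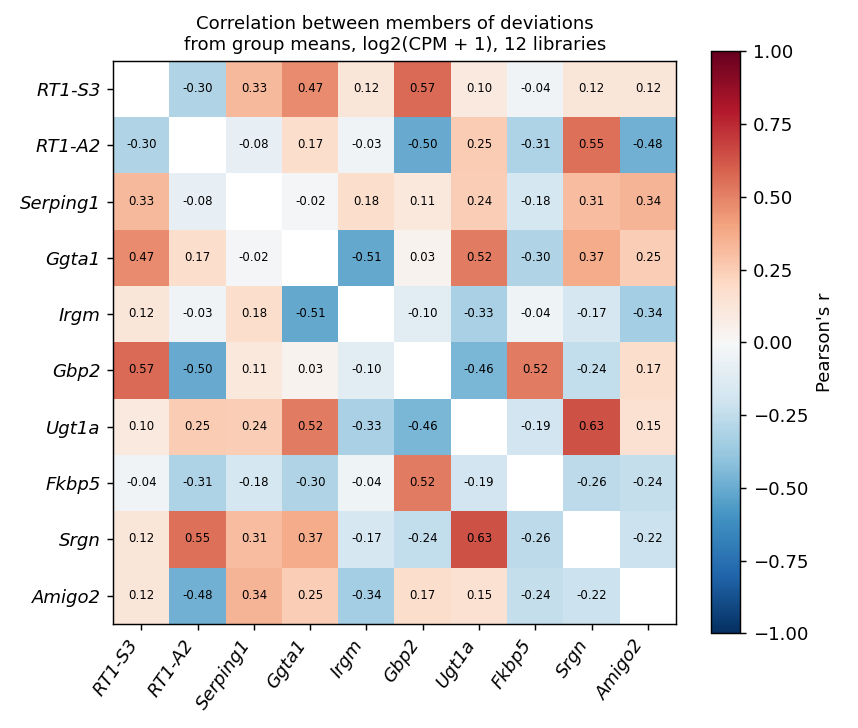
Pearson's r between A1 genes of the deviations of log2(CPM + 1) from their group means over 12 libraries, from -1 (blue) to 1 (red). Most fields are pale, with 38 of 45 pairs between -0.5 and 0.5 and the deepest red for *Ugt1a* and *Srgn* at 0.635.

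Among 1567 other genes with a name in the filtered table, those most like *Ggta1* over the 12 libraries included *Ltbp1* (r = 0.955) and *Mfge8* (0.948), both higher in wmASTRs. By deviations from the group means they were *Itga1* (0.940), *Ltbp1* (0.911) and *Ppp1r14a* (0.905). For *Ugt1a* they were *Ankrd1* (0.914), *Il1rl1* (0.873) and *Bdnf* (0.866) over the 12 libraries, and *Ybx1* (0.942), *Ankrd1* (0.843) and *Impa2* (0.778) by deviations. These are descriptions of the best of many genes in 12 libraries, which share the difference between regions. Thus *Ltbp1* was near *Ggta1* and *Ankrd1* near *Ugt1a* by both measures.

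Markers of other cells differed between the groups as well. Of 12 leptomeningeal markers 4 had an identifier and 3 were higher in gmASTRs, with a summed level of 545 to 5277 CPM in gmASTRs and 256 to 598 CPM in wmASTRs. The lowest gmASTR value, 545 CPM, was that of replicate 5, the gmASTR library with the highest *Ggta1*, *RT1-S3* and *RT1-A2* and the lowest *Fkbp5*. Of 13 endothelial markers 4 had an identifier and 1 was called, higher in wmASTRs, and their sums of 11.5 to 67.6 CPM in gmASTRs and 22.1 to 40.7 CPM in wmASTRs overlapped. Of 10 oligodendrocyte markers 4 had an identifier, 3 higher in wmASTRs and 1 in gmASTRs, with sums of 0.947 to 19.9 and 12.0 to 56.7 CPM. The source of the names limits these lists as well. The part of such cells in the values of the A1 genes was not tested.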

How the data were processed

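RNA of 6 gmASTR and 6 wmASTR cultures was sequenced with a 3′ mRNA kit. Reads were aligned by the authors with HISAT (0.1.5), sorted by SAMtools (1.2), and assigned to rat Ensembl genes by HTSeq (0.6.1p1) in union mode and without strand, as given in the paper and the submitters' processing notes. They deposited read counts without normalization, for 17941 genes and for the 9394 genes that passed their filter. Molecular identifiers are not mentioned in the sources used here. Overlapping genes cannot be told apart without strand.

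CPM values were computed from library totals of the unfiltered table. Counts were tested in edgeR (4.0.16, R 4.3.3) by the quasi-likelihood F test. The design held region alone, libraries were scaled by TMM, the prior count was 0.125, and p-values were adjusted after Benjamini-Hochberg over the whole filtered table, with a threshold of FDR 0.05. Genes outside it were tested among the 15478 genes with at least 1 count. The SE of a log2FC was taken from its F statistic. In counts drawn for this comparison over 9394 genes, 200 of them changed, 52 to 64% of genes with a log2FC of 1 and 86 to 89% with a log2FC of 2 were called, with 6 to 11 false calls. Permutation tests were exact, two-sided and over 924 divisions of the 12 libraries. Alternatives were DESeq2 (1.42.0), limma-voom (3.58.1), other scalings and gene filters, the replicate number as a block and each library left out. Further tools were Python (3.11.15), pandas (2.3.3), numpy (2.4.6), matplotlib (3.10.9) and scipy (1.17.1).

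Of 2070 gene names, 2010 stood beside an identifier in a sheet of additional file 1 and 60 were joined by 12 CPM values. Genes named are the 10 A1 genes, from each gene list the genes with FDR under 0.05 (at most 6) and at most 2 others by mean CPM, for marker lists the genes the study names and the 2 most abundant, and for each called A1 gene the 3 most similar genes by either measure, 1 of which is not reported here. The A1 genes and the lists were chosen with earlier results of these data known. Promoter sequences are from RefSeq (GRCr8). No coordinates of the authors' build are given, since the submitters' notes name a mouse assembly beside rat identifiers.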

Additional observations from a re-analysis of the deposited data

How the results depend on the processing

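Every alternative test, scaling and gene filter (DESeq2, limma-voom, no TMM, RLE, unfiltered table, filterByExpr) left 2 A1 genes called higher in wmASTRs and none higher in gmASTRs. With each library left out the number higher in wmASTRs was 1 to 3 and the number higher in gmASTRs was 0. The number of A1 genes with no overlap of libraries, 0 in the report, was 0 to 1 with each library left out. The number of named genes of the surrounding lists higher in gmASTRs, 5 in the report, was 1 to 5 with each library left out. Without both gmASTR replicate 5 and wmASTR replicate 4, chosen after seeing the data, 1 A1 gene (*Fkbp5*) was higher in gmASTRs. Over all fits the FDR was 0.00150 to 0.0583 for *Ggta1*, 0.00624 to 0.0644 for *Ugt1a*, 0.0226 to 0.199 for *Serping1*, 0.0361 to 0.346 for *Fkbp5* and 0.0618 to 0.394 for *RT1-S3*. The sign of the log2FC turned for *Amigo2* in limma-voom (0.74), without gmASTR replicate 3 or 4 and without wmASTR replicate 1, 2 or 4, with a range of -0.32 to 0.19 when each library was left out, and was 0.05 without both gmASTR replicate 5 and wmASTR replicate 4. It turned for *RT1-A2* without gmASTR replicate 3 or 5 and without wmASTR replicate 2 or 4, with a range of -0.11 to 0.54, and was -0.27 without both libraries named above. The mean difference of log2(CPM + 1) turned for *RT1-A2* without the same single libraries (range -0.0141 to 0.249) and for *Amigo2* without wmASTR replicate 3 or 6 (range -0.15 to 0.45). *RT1-A2* is near the limit of depth, and the cause of these turns was not tested.

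Both cultures came from the same animals, but no source says whether a replicate number marks an animal. Libraries with the same number did not deviate together (correlations of -0.0327 to 0.0109, and 0 of 6 gmASTR libraries were matched best by their own number), so the numbers were not taken as pairs. With the replicate number as a block, 3 A1 genes were higher in wmASTRs (*Serping1*, FDR = 0.0226, besides *Ggta1* and *Ugt1a*), and the log2FC of *Amigo2* was 0.28. The named list genes higher in gmASTRs then numbered 2, *Sult1a1* and *Gclc*. *Cdkn1c* (FDR = 0.0689), *Fkbp4* (0.0532) and *Gstm1* (0.0812) did not pass. The log2FC of *RT1-S3* was -2.66 with the block (FDR = 0.137). The wmASTR library was above the gmASTR library of its number in 6 of 6 cases for *RT1-S3*, *Serping1* and *Ggta1* and in 5 for *Ugt1a*, and the gmASTR library was above in 5 of 6 for *Gbp2* and *Fkbp5*. Over 64 swaps within numbers, p was 0.03125, the smallest possible, for the first 3 of these genes (*Serping1* had 0.0952 over all divisions of the libraries), 0.0625 for *Ugt1a* and *Gbp2* and 0.156 for *Fkbp5* (exact permutation tests).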
